A study of Mus musculus with 23 samples.

Results

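The 8 genes described here encode caspases and executioners of inflammatory cell death: Casp1, Casp4, Casp8, Casp12, Pycard, Gsdmd, Mlkl and Ripk3. They were found by their gene names among the 47643 genes of the expression table and followed across all 23 libraries. They were chosen by name with their TPM in all of these libraries already known, so the values of the 8 genes are given as a description, with standard errors but without p-values, and nothing is supported with them. Tests are given for genes of the wider pathways, written into 9 lists of 78 genes in all. These lists too were written with earlier results of these data known, so their p-values are not independent of that choice.

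Inflammatory cell death is a form of killing in which the dying cell bursts and releases its contents. In pyroptosis, a sensor of infection or damage assembles with the adaptor ASC, the product of Pycard, and activates caspase-1, the product of Casp1, which matures the cytokines IL-1β and IL-18. Casp4 encodes the caspase that responds to intracellular lipopolysaccharide, known in mouse as caspase-11, and both enzymes cleave gasdermin D, the product of Gsdmd, whose freed fragment forms pores in the plasma membrane. Casp12 encodes a related member of the inflammatory caspases, associated with the endoplasmic reticulum. In necroptosis, the kinase RIPK3 phosphorylates MLKL, which then disrupts the plasma membrane. Casp8 encodes the initiator caspase of death receptors, which starts apoptosis and restrains necroptosis. Several of these genes are known to respond to interferons, and myeloid cells such as macrophages are a usual source of them.

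RNA was sequenced from B16F10, a mouse melanoma cell line, as bulk tumors, as tumor cells purified from tumors on magnetic beads (sorted tumor cells) after collagenase digestion and depletion of stromal cells, and as cultured cells. Each sample type had 2 libraries of control cells (genotype WT) and 2 libraries each of cells edited with the sgRNA sg492 or sg495 against Nr2f6, a nuclear receptor gene (genotype NR2F6 KO). Edited cells received Cy3-labeled sgRNA with Cas9 protein and were sorted as a Cy3-positive population, and the study's methods describe grafting under the skin of male C57BL/6 mice of 6 to 8 weeks. A further 2 libraries are labeled IgG control and 3 anti-PD1, with genotype WT and no sample type. Values are TPM, a transcript share which are scaled for gene length and for each library's total, and TPM carry no depth of a single library. Nr2f6 was at 25.8 and 25.2 TPM in control bulk tumors and at 17.2 and 15.8 TPM with sg495, and it was lower with sg495 in all 3 sample types. It lies on chromosome 8, whose median log2 difference with sg495 was -0.25 in bulk, -0.34 in sorted and -0.33 in cultured cells. How far Nr2f6 fell beyond its chromosome was not tested. In the sorted tumor cells labeled sg492 Nr2f6 was at 19.8 and 25.7 TPM against 20.3 and 17.7 TPM in control, so these libraries showed no lower transcript level of the targeted gene. Ptprc, which encodes the leukocyte antigen CD45, was at 0 in the 6 cultured libraries, at most 0.15 TPM in sorted tumor cells, between 5.74 and 26.2 TPM in bulk tumors and between 86.7 and 273 TPM in the IgG and anti-PD1 libraries, whereas the summed melanocyte genes were between 14840 and 17840 TPM in the 3 sample types and between 1663 and 5015 TPM in the IgG and anti-PD1 libraries. The IgG and anti-PD1 libraries therefore stood apart from the rest before any comparison of the 8 genes.

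Casp1, Casp4 and Casp12 lie in tandem on the plus strand of chromosome 9, within 74516 bases. On GRCm38, Casp1 spans chr9:5298517-5307265, Casp4 chr9:5308828-5336783 and Casp12 chr9:5345430-5373032, with gaps of 1562 and 8646 bases. The other 5 genes lie on 5 other chromosomes, namely Casp8 on 1, Pycard on 7, Mlkl on 8, Ripk3 on 14 and Gsdmd on 15. The upstream sequences of the 3 neighbors are shown because these genes differed in where they were expressed, as described for each below. The sequences come from RefSeq (GRCm38.p6), are read 5′ to 3′ and end 1 base before the first annotated base of the gene, and capitals mark a match to the gamma-activated site, a motif of interferon-γ responses.
Casp1 (chr9:5298267-5298516, plus strand): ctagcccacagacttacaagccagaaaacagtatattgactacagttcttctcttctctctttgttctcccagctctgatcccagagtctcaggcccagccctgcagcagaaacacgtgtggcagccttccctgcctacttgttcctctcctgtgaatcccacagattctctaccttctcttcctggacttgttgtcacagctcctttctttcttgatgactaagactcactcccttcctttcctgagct
Casp4 (chr9:5308599-5308827, plus strand): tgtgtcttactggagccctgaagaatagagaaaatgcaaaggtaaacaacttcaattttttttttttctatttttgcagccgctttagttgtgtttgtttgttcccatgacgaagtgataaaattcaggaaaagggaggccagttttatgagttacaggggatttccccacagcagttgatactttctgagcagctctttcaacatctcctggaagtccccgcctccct
Casp12 (chr9:5345226-5345429, plus strand): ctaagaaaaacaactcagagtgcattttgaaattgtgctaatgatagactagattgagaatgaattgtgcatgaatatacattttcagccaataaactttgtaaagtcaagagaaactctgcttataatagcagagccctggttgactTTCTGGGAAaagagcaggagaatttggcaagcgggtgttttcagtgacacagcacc
The motif was searched as TTCNNNGAA, which reads alike on both strands, in the 250 bases before each RefSeq start. RefSeq gave windows for 7 of the 8 genes, and of the 2 for Casp4 the 1 nearest the GENCODE start was searched. For Casp8 the RefSeq start lay 7128 bases from the GENCODE start. The motif was found in 7.02% of 32851 windows of this length and in 1 of the 7 searched for these genes, that of Casp12. That window held TTCTGGGAA at 102 to 94 bases and again at 36 to 28 bases before the RefSeq start, and the second copy lies within the 46 bases by which the GENCODE start precedes the RefSeq start, which are not printed. The core of the interferon response element, GAAANNGAA on either strand, which can overlap the first motif, was in 7.13% of all windows and in 0 of the 7. A match is a run of letters and not a shown binding site, and the absence of one says only that these letters are not in the window.

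Casp8, Pycard and Mlkl were expressed in B16F10 cells in every setting. In control libraries, Casp8 was at 91.4 and 93.5 TPM in culture, at 65.3 and 59.4 TPM in sorted cells and at 90.8 and 83.6 TPM in bulk tumors. Its whole range over 23 libraries ran from 50.2 to 115 TPM, the narrowest fold range of the 8 genes. Pycard was at 46.2 and 57.5 TPM in control cultured cells, at 39.3 and 40.8 TPM in sorted and at 61.1 and 52.5 TPM in bulk. Mlkl was at 59.9 and 57.8 TPM in control cultured cells, at 36.0 and 32.4 TPM in sorted and at 48.5 and 42.1 TPM in bulk. For these 3 genes the sorted cells held the lowest level of the control groups. In the order of group means, Mlkl was led by sg492 bulk tumors at 61.0 TPM, sg492 cultured cells at 60.0 TPM and control cultured cells at 58.9 TPM, and these neighbors overlapped.

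**Figure D1:**
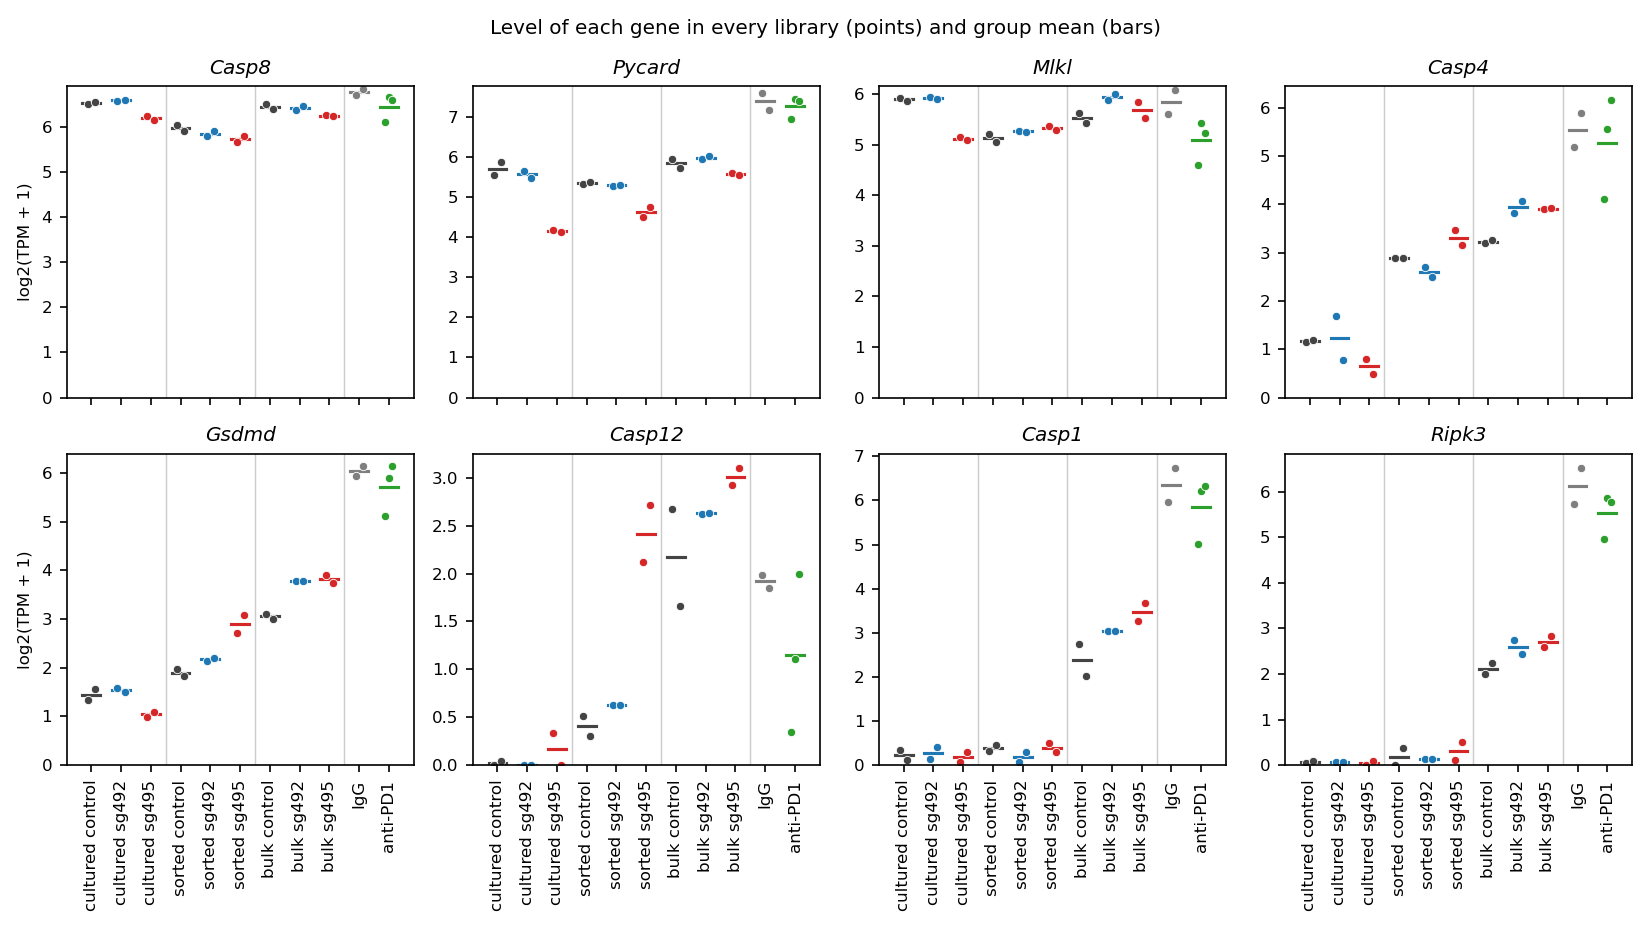
Level of each of the 8 genes as log2(TPM + 1) on the vertical axis, in the 11 groups on the horizontal axis, with points for libraries and bars for group means. Casp8, Pycard and Mlkl were present in all groups, Casp4 and Gsdmd were low in culture, Casp12 was near 0 in sorted tumor cells except with sg495, and Casp1 and Ripk3 were near 0 in sorted and cultured cells.

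Casp4 and Gsdmd were low in culture and higher in cells taken from tumors. Casp4 was at 1.23 and 1.28 TPM in control cultured cells, at 6.39 and 6.41 TPM in the sorted controls and at 8.18 and 8.55 TPM in the bulk controls. Gsdmd was at 1.51 and 1.96 TPM in control cultured cells, at 2.90 and 2.57 TPM in sorted and at 7.64 and 7.02 TPM in bulk. Neither gene's 3 control groups overlapped. Casp12 was at 0 and 0.03 TPM in control cultured cells, at 0.43 and 0.23 TPM in sorted and at 5.38 and 2.17 TPM in bulk. Of the 6 cultured libraries, 4 had Casp12 listed at 0.

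Casp1 and Ripk3 were near 0 in sorted and cultured cells. Casp1 did not exceed 0.42 TPM in the 6 sorted libraries and 0.32 TPM in the 6 cultured ones, and it was at 5.75 and 3.07 TPM in control bulk tumors. Ripk3 did not exceed 0.41 TPM in sorted and 0.07 TPM in cultured libraries, and it was at 2.98 and 3.73 TPM in control bulk tumors. The groups of sorted and cultured cells followed each other in the order of Casp1 levels with every neighboring pair overlapping. Transcripts of both genes were thus low or undetected in the tumor cells, although Pycard, Gsdmd and Mlkl, whose proteins act beside theirs, were measured there.

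The comparison of control sorted with control cultured cells addresses which of these genes differ between tumor cells grown in the mouse and in the dish. Genes count as called where limma's p, adjusted by Benjamini and Hochberg, was below 0.05 and the fold change reached 1.5, and differences are in mean log2(TPM + 1). Casp4 was higher in sorted cells by 1.71 ± 0.23 (SE, n = 2 and 2), 3.28-fold in TPM + 1, and Mlkl was lower, with a difference of -0.77 ± 0.10. These were 2 of the 8 genes called, beside 20.2% of all genes tested. Casp8 differed by -0.56 ± 0.07, Pycard by -0.36 ± 0.11, and Gsdmd by 0.45 ± 0.14, all under the fold threshold, which applies to TPM + 1. Sorted cells had also passed through digestion and bead depletion, which cultured cells had not, and growth in the mouse and this handling cannot be told apart.

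In the wider pathways, 8 of 51 tested genes rose and 6 fell in sorted against cultured control cells, with a median of 0.09 over the 51 and 0.0 over all genes. Among regulators of necroptosis, Tlr4 (0.72 ± 0.11, adjusted p = 0.0002706), the lipopolysaccharide receptor, and Birc2 (0.65 ± 0.11, adjusted p = 0.0004671), a ubiquitin ligase, rose. Ripk1 (-0.86 ± 0.12, adjusted p = 0.000152), the kinase upstream of RIPK3, and Ticam1 (-1.12 ± 0.14, adjusted p = 6.293e-05), an adaptor of Toll-like receptors, fell. The death receptor adaptors Fadd (-0.65 ± 0.09, adjusted p = 0.0001145) and Tradd (-0.60 ± 0.16, adjusted p = 0.0097) also fell, and so did the gasdermin Gsdme (-0.83 ± 0.11, adjusted p = 9.232e-05). Of 10 tested genes of mitochondrial apoptosis, Bcl2 (1.23 ± 0.13, adjusted p = 1.511e-05), which blocks the process, and Bcl2l11 and Bbc3, which promote it, rose, and none fell. Among the 6 tested interferon transcription factors, Irf7 (0.93 ± 0.35, adjusted p = 0.04842) and Irf9 (0.71 ± 0.20, adjusted p = 0.01273) rose and Irf1 (-1.37 ± 0.32, adjusted p = 0.004266) fell. The serpin Serpinb1a, listed at 0 in both control cultured libraries, completed the genes that rose.

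All 8 genes were higher on average in control bulk tumors than in control sorted tumor cells. Casp1 differed by 2.01 ± 0.24, Ripk3 by 1.93 ± 0.20, Casp12 by 1.76 ± 0.28 and Gsdmd by 1.16 ± 0.14, and these 4 of 8 were called beside 12.7% of all genes. Casp1, Ripk3 and Casp12 passed the filter of a mean of 1 TPM only through the bulk tumors (means of 0.215, 0.101 and 0.913 TPM over the 12 sorted and cultured libraries), so they had to be higher in bulk tumors to be included. Casp8, Pycard and Mlkl differed by 0.48 ± 0.07, 0.49 ± 0.11 and 0.39 ± 0.10, and Casp4 by 0.34 ± 0.23. The median of the 8 genes was 0.82, and that of all genes 0.01. Markers of other cell types moved with this comparison, since the 13 macrophage and monocyte markers summed to 708 and 499 TPM in control bulk tumors and to 5.86 and 4.4 TPM in control sorted cells, of which Cd68 alone made up 5.06 and 3.62 TPM. The defining macrophage markers Adgre1 and C1qa were at 0 in both control sorted libraries. In a bulk tumor, more cells of a type and more RNA per cell cannot be told apart.

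Of 51 tested pathway genes, 16 rose and 2 fell in control bulk tumors against control sorted cells. The interleukin-1 receptor antagonist Il1rn (3.64 ± 0.38, adjusted p = 1.578e-05), the IL-18 binding protein Il18bp (2.48 ± 0.32, adjusted p = 9.054e-05) and Il1b (1.90 ± 0.50, adjusted p = 0.0138), which encodes IL-1β, rose. All 4 serpins rose, led by Serpina3g (3.14 ± 0.27, adjusted p = 2.739e-06). Zbp1 (3.82 ± 0.47, adjusted p = 6.015e-05), a nucleic acid sensor that engages RIPK3, Birc3 (1.16 ± 0.31, adjusted p = 0.01457) and Ripk1 (0.72 ± 0.12, adjusted p = 0.0009047) rose among necroptosis regulators. All but 1 of the 6 interferon transcription factors rose, with Irf8 (2.86 ± 0.31, adjusted p = 2.452e-05) and Irf7 (2.79 ± 0.35, adjusted p = 7.15e-05) ahead. The pro-apoptotic genes Bbc3 (-1.18 ± 0.29, adjusted p = 0.01003) and Bcl2l11 (-0.78 ± 0.17, adjusted p = 0.005187) fell. Nod1 (2.05 ± 0.26, adjusted p = 9.239e-05), a sensor of bacterial peptidoglycan, was the 1 gene of the sensor list that rose. Of the 16 that rose, 5 (Il1b, Il1rn, Serpinb1a, Serpina3g and Irf8) averaged under 1 TPM outside the bulk tumors and passed the filter only through them, so their rise was a condition of being tested. Without control bulk replicate 1, 11 pathway genes were called in place of 18. The marker sums given above moved with these genes too, and their part was not tested.

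With sg495, sorted tumor cells had more Casp12, Gsdmd and Casp4 and less Pycard. Casp12 was at 3.35 and 5.56 TPM with sg495, at 0.55 and 0.54 TPM with sg492 and at 0.43 and 0.23 TPM in control. Gsdmd was at 5.54 and 7.50 TPM with sg495, at 3.42 and 3.57 TPM with sg492 and at 2.90 and 2.57 TPM in control. Casp4 was at 10.1 and 7.87 TPM with sg495, at 5.51 and 4.61 TPM with sg492 and at 6.39 and 6.41 TPM in control. For these 3 genes both sg495 libraries were above the 4 others. Pycard went the other way, with 21.6 and 26.0 TPM for sg495, 37.9 and 38.8 TPM for sg492 and 39.3 and 40.8 TPM in control. Mlkl, at 40.5 and 38.1 TPM with sg495 and 36.0 and 32.4 TPM in control, was higher in both sg495 libraries by a smaller amount, and Casp8, at 50.2 and 55.4 TPM with sg495 and 65.3 and 59.4 TPM in control, was lower in both.

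**Figure D2:**
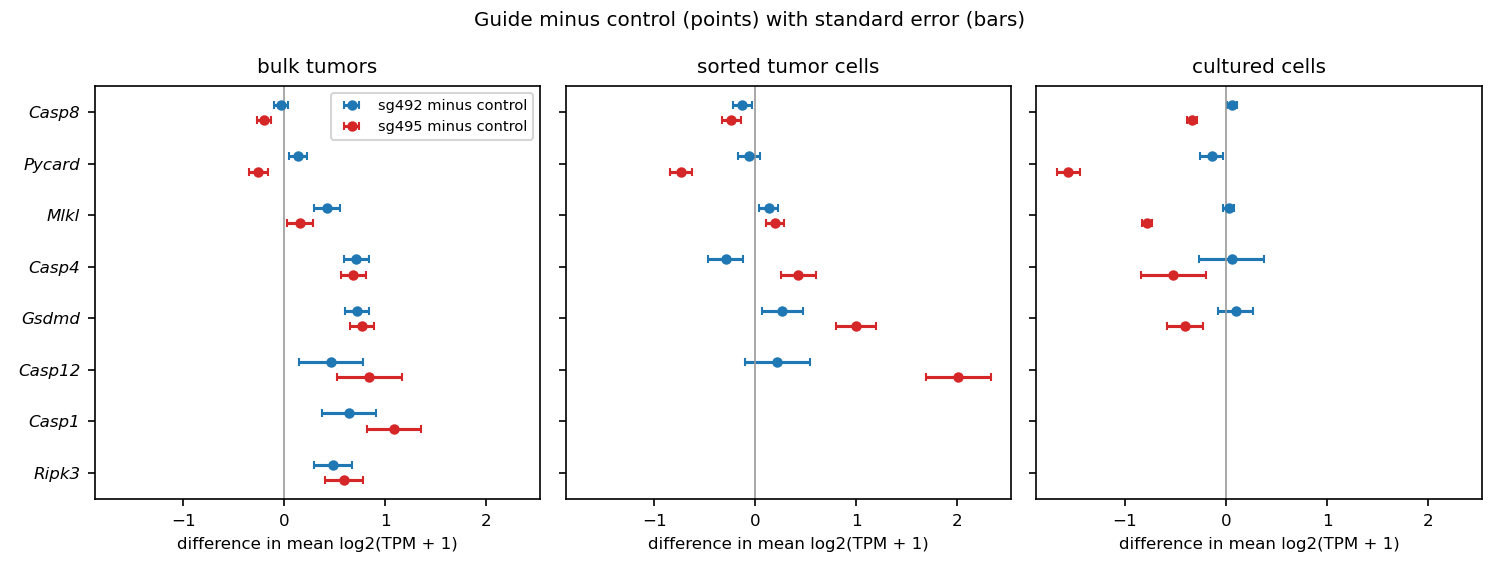
Difference in mean log2(TPM + 1) between each guide and control on the horizontal axis, for the genes on the vertical axis that passed the filter on low values, with points for estimates and bars for standard errors. Pycard was lower with sg495 in sorted (-0.73) and cultured cells (-1.56), whereas Casp12 was higher with sg495 in sorted cells (2.01).

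The differences of sg495 from control in sorted cells were 2.01 ± 0.32 for Casp12, 1.00 ± 0.20 for Gsdmd, 0.42 ± 0.17 for Casp4, 0.20 ± 0.09 for Mlkl, -0.24 ± 0.10 for Casp8 and -0.73 ± 0.11 for Pycard. Casp12 passed the filter of a mean of 1 TPM only through the sg495 libraries, so it had to differ to be included. Casp1 and Ripk3 did not pass it, at 0.42 and 0.22 TPM and at 0.08 and 0.41 TPM with sg495. Pycard was the 1 gene called of 6 tested, beside 0.899% of all genes, and leaving out any 1 of the 6 sorted libraries left 0 called. In a fit of all 18 libraries 3 were called, but the share of all genes called in that fit is not given, and 0.899% is not its background. The macrophage and monocyte markers summed to 8.39 and 13.9 TPM with sg495, 5.71 and 6.21 TPM with sg492 and 5.86 and 4.4 TPM in control. Most of that sum was Cd68, at 6.76 and 12.1 TPM with sg495, 5.38 and 5.88 TPM with sg492 and 5.06 and 3.62 TPM in control, and it was the 1 marker of the 13 that passed the filter. The other 12 summed to 1.63 and 1.80 TPM, 0.33 and 0.33 TPM, and 0.80 and 0.78 TPM in the same order. Both sums were highest with sg495, as Casp12 and Gsdmd were, and their part was not tested. The defining markers Ptprc and Adgre1 were at or under 0.15 TPM in these 6 libraries.

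In the same comparison, 4 of 46 tested pathway genes rose and 0 fell. Irf1 (3.57 ± 0.36, adjusted p = 0.01669), a transcription factor induced by interferon-γ, was at 73.3 and 53.7 TPM with sg495 against 6.40 and 2.91 TPM in control. Irf9 (1.55 ± 0.21, adjusted p = 0.03919), a factor of the type I interferon response, was at 18.6 and 13.4 TPM against 5.61 and 3.97 TPM, so that 2 of 5 tested interferon transcription factors were called, with a list median of 0.94 beside -0.04 over all genes. Of these 5, 4 had a positive difference and 1 a negative one. The negative one was Irf2, on chromosome 8, at 8.56 and 8.35 TPM with sg495 against 14.9 and 13.0 TPM in control, and it was not called. Zbp1 (3.96 ± 0.49, adjusted p = 0.03002) was at 27.2 and 20.1 TPM against 1.21 and 0.11 TPM, while its partner kinase Ripk3 was at most 0.41 TPM. Il18bp (2.44 ± 0.31, adjusted p = 0.03186) was at 6.71 and 6.79 TPM against 0.84 and 0.11 TPM, and like Casp12 it passed the filter only through the sg495 libraries, with a mean of 0.968 TPM over the 4 others. Without a filter on low values 0 pathway genes were called, and leaving out 1 of the 6 sorted libraries left between 0 and 2.

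In culture, sg495 went with lower levels of every one of the 5 genes that passed the filter. Pycard was at 17.2 and 16.4 TPM with sg495, at 49.8 and 43.8 TPM with sg492 and at 46.2 and 57.5 TPM in control. Mlkl was at 34.7 and 33.1 TPM with sg495, at 61.0 and 59.0 TPM with sg492 and at 59.9 and 57.8 TPM in control. Casp8 was at 75.5 and 70.5 TPM with sg495, at 95.6 and 97.2 TPM with sg492 and at 91.4 and 93.5 TPM in control. In each of these genes the sg495 libraries lay below the 4 others. The differences from control were -1.56 ± 0.11 for Pycard, 2.95-fold lower in TPM + 1, -0.78 ± 0.05 for Mlkl and -0.34 ± 0.05 for Casp8. Casp4 (-0.52 ± 0.32) and Gsdmd (-0.41 ± 0.18) were low in all cultured libraries, at 0.75 and 0.41 TPM and at 0.98 and 1.14 TPM with sg495. Casp12 was at 0.26 and 0 TPM with sg495. Pycard and Mlkl, 2 of 5 tested, were called beside 2.77% of all genes.

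Mlkl lies on the same chromosome as Nr2f6, and that chromosome was lower with sg495 as a whole. Of 645 tested genes of chromosome 8 in cultured cells, 90.7% had a negative difference and the median was -0.33, and Mlkl at -0.78 lay lower than all but 3.72% of them. After chromosome 8 was centered on its median, the difference of Mlkl in culture was -0.44 and it was no longer called. In sorted cells the median of 684 genes of the chromosome was -0.34 and Mlkl, at 0.20, lay above 93.6% of them. With sg492 the medians of the chromosome were between 0.02 and 0.03.

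Of 41 pathway genes tested in culture, 2 fell with sg495 and 0 rose. Il18 (-0.84 ± 0.16, adjusted p = 0.02655), the IL-18 cytokine gene, was at 0.92 and 1.14 TPM against 2.69 and 2.56 TPM in control. Casp6 (-0.59 ± 0.07, adjusted p = 0.007131), an executioner caspase, was at 16.4 and 16.9 TPM against 24.1 and 26.9 TPM. All 4 tested genes of the list of other caspases had negative differences, with a median of -0.37 beside -0.001 over all genes. Without control cultured replicate 2 or sg495 cultured replicate 1, 0 pathway genes were called, and without control cultured replicate 1 or sg495 cultured replicate 2 Il18 was no longer called. Il18 was not called without a filter on low values or in a fit of 2 groups, and Casp6 was not called after median-of-ratios scaling or quantile normalization. None of the 4 tested interferon transcription factors was called in culture (limma), and 2 had an unadjusted p below 0.05.

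The effect of sg495 in sorted tumor cells was set against its effect in culture in a model of all 18 libraries, as the difference of the differences. It was 1.87 ± 0.40 for Casp12, 1.40 ± 0.20 for Gsdmd, 0.97 ± 0.14 for Mlkl, 0.95 ± 0.33 for Casp4, 0.83 ± 0.16 for Pycard and 0.10 ± 0.10 for Casp8. For Casp1 and Ripk3 it was 0.06 ± 0.34 and 0.14 ± 0.29, on levels near 0 in both sample types. Casp12, Gsdmd, Mlkl and Pycard, 4 of 8, were called beside 2.51% of all genes. Gsdmd and Mlkl had opposite signs in the 2 sample types, positive in sorted and negative in cultured cells. Pycard was lower in both, by less in sorted cells. Casp12 was no longer called with a pseudocount of 0.1, without the filter or after quantile normalization, and the same held without either library of control cultured, sg495 cultured or control sorted cells or without sg495 sorted replicate 2. Pycard was no longer called without control cultured replicate 2, sg495 cultured replicate 2 or control sorted replicate 1.

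**Figure D3:**
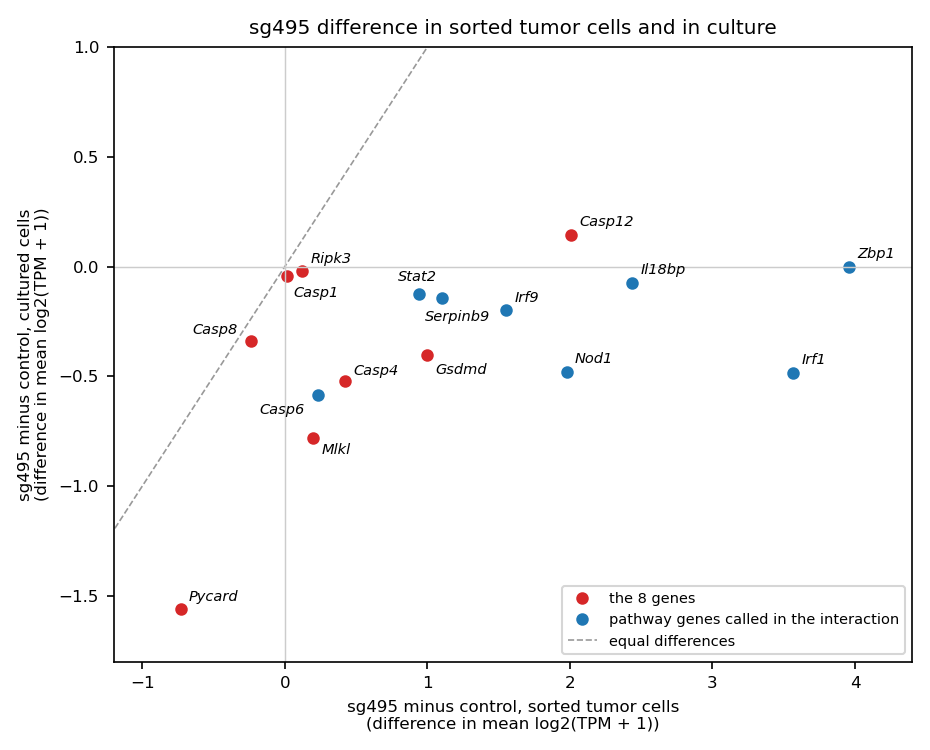
Difference in mean log2(TPM + 1) between sg495 and control in sorted tumor cells on the horizontal axis and in cultured cells on the vertical axis, with 1 point per gene, red for the 8 genes and blue for the pathway genes called in the interaction. The dashed line marks equal differences, and Irf1 and Zbp1 lie farthest to the right of it, at 3.57 and 3.96 in sorted cells.

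A total of 8 of 51 tested pathway genes were called with a positive difference of the differences, sorted minus cultured, and 0 with a negative one. They included 3 of 6 interferon transcription factors, with Irf1 (4.05 ± 0.45, adjusted p = 0.0007455), Irf9 (1.75 ± 0.28, adjusted p = 0.006705) and Stat2 (1.06 ± 0.26, adjusted p = 0.03996). Zbp1 (3.96 ± 0.66, adjusted p = 0.007502), Il18bp (2.51 ± 0.45, adjusted p = 0.009789) and Nod1 (2.46 ± 0.37, adjusted p = 0.004507) followed. Serpinb9 (1.25 ± 0.29, adjusted p = 0.03604), which encodes an inhibitor of granzyme B, and Casp6 (0.82 ± 0.18, adjusted p = 0.02835) completed the set. Casp6 was lower with sg495 in culture and not in sorted cells, where it was at 22.8 and 28.3 TPM against 23.8 and 19.4 TPM. Stat2, Serpinb9 and Casp6 were no longer called without a filter on low values, without either library of control cultured or sg495 cultured cells or without control sorted replicate 2, which left 5 pathway genes called. The sample types share no control libraries in this comparison.

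Bulk tumors of both guides had more Casp1, Gsdmd, Casp4 and Ripk3 than control bulk tumors. Casp1 was at 8.57 and 11.9 TPM with sg495, at 7.20 and 7.16 TPM with sg492 and at 5.75 and 3.07 TPM in control. Gsdmd was at 14.0 and 12.4 TPM with sg495, at 12.7 and 12.7 TPM with sg492 and at 7.64 and 7.02 TPM in control. Casp4 was at 13.9 and 14.2 TPM with sg495, at 13.1 and 15.7 TPM with sg492 and at 8.18 and 8.55 TPM in control. Ripk3 was at 5.04 and 6.09 TPM with sg495, at 5.71 and 4.44 TPM with sg492 and at 2.98 and 3.73 TPM in control. In these 4 genes the edited tumors lay above both controls, and the guides share those controls. The differences of sg495 were 1.08 ± 0.27 for Casp1, 0.77 ± 0.12 for Gsdmd, 0.68 ± 0.12 for Casp4 and 0.59 ± 0.19 for Ripk3, and those of sg492 were 0.64 ± 0.27, 0.72 ± 0.12, 0.71 ± 0.12 and 0.48 ± 0.19. Casp12 differed by 0.84 ± 0.32 with sg495 and by 0.46 ± 0.32 with sg492, and its sg492 libraries, at 5.16 and 5.21 TPM, lay between the 2 controls.

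Casp8, Pycard and Mlkl, which were also expressed in culture, did not follow this pattern in bulk. Pycard was at 48.1 and 46.4 TPM with sg495, below both controls, and at 60.7 and 64.1 TPM with sg492. Casp8 was at 76.0 and 75.3 TPM with sg495, also below both controls. Mlkl was at 58.5 and 63.4 TPM with sg492, above both controls, and at 56.3 and 45.2 TPM with sg495. The differences of sg495 from control were -0.26 ± 0.09 for Pycard, -0.20 ± 0.07 for Casp8 and 0.15 ± 0.13 for Mlkl.

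None of the 8 genes was called in bulk tumors, beside 0.0293% of all genes for sg495 and 0.0% for sg492. Of 13639 genes, limma called 4 for sg495 and 0 for sg492, with 2135 and 1132 at an unadjusted p below 0.05. The study's own test, on estimated counts at the same thresholds, reported more genes changed with sg495 in each sample type than were called here. A count of 0 called is therefore not a sign that the genes were unchanged. Of 60 tested pathway genes 0 were called for either guide, with 24 and 14 at an unadjusted p below 0.05. In a fit of all 18 libraries, which shares the spread of all sample types, 2 of the 8 genes and 6 pathway genes were called for sg495, with 51 pathway genes tested. The share of all genes called in that fit is not given, and 0.0293% is not its background. Without control bulk replicate 1, 6 pathway genes were called for sg495 and 3 for sg492. Leukocyte and stromal markers moved with these differences. Edited tumors had Ptprc at 18.2 and 26.2 TPM (sg495) and at 13.8 and 16.0 TPM (sg492), control tumors at 9.29 and 5.74 TPM, and the macrophage and monocyte markers summed to 708 and 499 TPM, 774 and 956 TPM, and 1032 and 1104 TPM in the order of control, sg492 and sg495. The fibroblast markers summed to 401 and 339 TPM, 458 and 547 TPM, and 548 and 954 TPM. Their part in the differences of Casp1, Gsdmd, Casp4 and Ripk3 was not tested. Per unit of Ptprc, Casp1 was at 0.47 and 0.45 with sg495, 0.52 and 0.45 with sg492 and 0.62 and 0.53 in control. Ripk3 was at 0.28 and 0.23, 0.41 and 0.28, and 0.32 and 0.65 in the same order. These ratios were not tested, and none was formed for Gsdmd and Casp4.

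The effect of sg495 in bulk tumors did not differ beyond the thresholds from that in sorted cells for any of the 8 genes, beside 0.122% of all genes called. The largest difference of differences was for Casp12, at -1.17 ± 0.40, and the next for Casp1, at 1.07 ± 0.34. Of 51 tested pathway genes 0 were called, with 11 at an unadjusted p below 0.05. These contrasts share the control libraries of sorted cells with the comparison between sorted and cultured cells.

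With sg492, sorted and cultured cells stayed close to control. In sorted cells the differences of the 6 tested genes ran from -0.29 ± 0.17 for Casp4 to 0.27 ± 0.20 for Gsdmd, and 0 were called beside 0.0388% of all genes. In cultured cells those of the 5 tested genes ran from -0.14 ± 0.11 for Pycard to 0.10 ± 0.18 for Gsdmd, and 0 were called beside 0.05% of all genes. No pathway gene was called in either (limma), with 4 of 46 and 3 of 41 at an unadjusted p below 0.05. The difference between the guides was not tested. As given above, the sorted libraries labeled sg492 did not have less Nr2f6 transcript than control. The study checked its knockout by immunoblotting and by sequencing the targeted regions, which transcript levels do not address.

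The IgG and anti-PD1 libraries held the highest levels of Pycard, Casp4, Gsdmd, Casp1 and Ripk3 in the series. With IgG, Casp1 was at 61.2 and 105 TPM, and with anti-PD1 at 31.1, 72.7 and 78.9 TPM. Ripk3 was at 52.4 and 90.5 TPM with IgG and at 30.1, 57.5 and 53.5 TPM with anti-PD1. Gsdmd was at 60.1 and 69.6 TPM with IgG and at 33.8, 58.3 and 69.4 TPM with anti-PD1. For these 3 genes the lowest of the 5 libraries was above the highest bulk tumor. Pycard was at 194 and 145 TPM with IgG and at 124, 175 and 167 TPM with anti-PD1. Casp4 was at 35.6 and 58.6 TPM with IgG and at 16.2, 46.4 and 70.9 TPM with anti-PD1, and for both genes the 5 libraries again lay above the bulk tumors. Casp12 was different, at 2.96 and 2.61 TPM with IgG and at 0.27, 1.15 and 2.98 TPM with anti-PD1, below 5 of the 6 bulk tumors. The fibroblast, endothelial and melanocyte marker sums were below those of all 6, and their part in the level of Casp12 was not tested. Casp8 was at 104 and 115 TPM with IgG and at 68.0, 102 and 95.8 TPM with anti-PD1, and Mlkl at 47.7 and 67.2 TPM and at 23.1, 42.5 and 36.6 TPM.

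**Figure D4:**
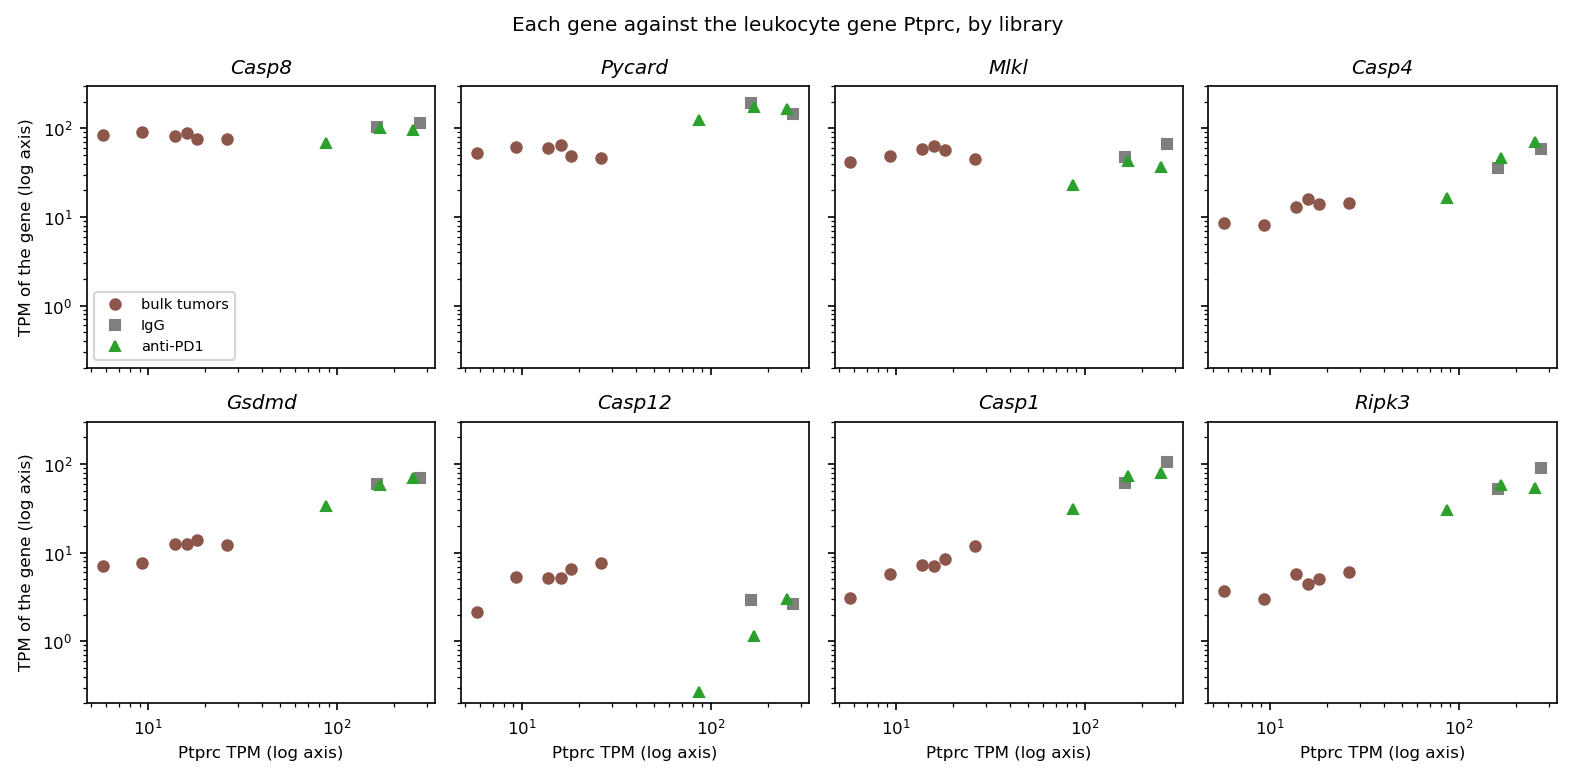
TPM of each gene on the vertical axis against TPM of the leukocyte gene Ptprc on the horizontal axis, both on log axes, with 1 point per library of bulk tumors, IgG and anti-PD1. Casp1 spans 3.07 to 105 TPM along with Ptprc, whereas Casp8 stays between 68.0 and 115 TPM.

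Anti-PD1 replicate 1 had the lowest level of all 8 genes among the 3 anti-PD1 libraries and the lowest Ptprc, at 86.7 TPM. The macrophage and monocyte markers summed to between 7661 and 11610 TPM in these 5 libraries, against 499 to 1104 TPM in bulk tumors. Relative to Ptprc, Casp1 was between 0.31 and 0.43 in the 5 libraries and between 0.45 and 0.62 in bulk tumors, and Ripk3 between 0.21 and 0.35 and between 0.23 and 0.65. In the 5 libraries Casp1 was higher in TPM than in bulk tumors and lower per unit of Ptprc. The part of leukocytes in its level was not tested. No comparison with bulk tumors was tested, because the labels do not say what material the 5 libraries came from.

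Between anti-PD1 and IgG all 8 genes had a negative difference, with a median of -0.41 beside -0.04 over all genes, and the groups overlapped for 6 of them. The differences ran from -0.12 ± 0.24 for Pycard to -0.77 ± 0.59 for Casp12, with -0.76 ± 0.31 for Mlkl, -0.59 ± 0.36 for Ripk3 and -0.50 ± 0.44 for Casp1. None was called, beside 0.0% of 13418 genes, of which 964 had an unadjusted p below 0.05. Of 69 tested pathway genes 0 were called, 4 had an unadjusted p below 0.05 and 60 had a negative difference. In simulated data at this size, 0% of genes with a log2 change of 1 and 40% of those with a change of 2 were called. These changes were placed only in genes away from 0 TPM. The summed T cell markers ran from 28.5 to 275 TPM across the anti-PD1 libraries and were 138 and 251 TPM with IgG, so the spread within a group was as wide as the gap between groups. Other markers moved with the 8 genes. All 10 leukocyte markers and 12 of 13 macrophage and monocyte markers had negative differences, with medians of -0.45 and -0.47, and all 7 melanocyte markers had positive ones, with a median of 0.85. The groups did not overlap for 4 of the leukocyte, 5 of the macrophage and monocyte and 3 of the melanocyte markers, 0 of these markers were called (limma), and their part in the differences of the 8 genes was not tested.

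The genes most like each of the 8 were found by the mean absolute difference of centered log2(TPM + 1) over the 11 group means, among 13595 genes averaging 1 TPM or more. Casp1 was nearest to Sla, Ly9 and P2ry6, with mean differences of 0.096, 0.097 and 0.101, and Ripk3 to Cmklr1, Cd86 and Eif2s3y, with 0.097, 0.099 and 0.103. Gsdmd was nearest to Trim12c (0.17), Cyba (0.23) and Ptpn6 (0.23), and Casp4 to Fblim1 (0.23), Trim25 (0.25) and Ifih1 (0.28). Casp8 had Ywhah (0.07), Ccdc102a (0.08) and Cpt1a (0.08) beside it, and Mlkl had Tgfbr3 (0.12), D17H6S53E (0.15) and Phf12 (0.16). For Pycard the nearest were Ctsl (0.26), Svil (0.26) and Irf2 (0.27), and for Casp12 they were 9330175E14Rik (0.28), Gm4841 (0.29) and Icam2 (0.35). No gene followed Casp12 as closely as Sla followed Casp1. The likeness describes 11 group means and carries no p.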

How the data were processed

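Poly(A) RNA of B16F10 samples was sequenced from a single end with a directional kit. Per the labels, the authors trimmed reads with cutadapt 2.3, aligned them to mm10 with STAR 2.7.0d and quantified genes with RSEM 1.3.1, and they deposited TPM of 47643 genes in 23 libraries, to 2 decimals. The authors' own test ran on estimated counts, which were not used here, and TPM hold no read depth, so no counting interval is given. Nothing in the sources states that libraries of a group came from separate animals or cultures, and p-values measure the spread between libraries.

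Genes averaging 1 TPM or more over the libraries of a fit were kept, and limma 3.58.1 (R 4.3.3) was run on log2(TPM + 1) (1 mean per group, expression trend, Benjamini-Hochberg adjustment, 2-sided tests). The call needed an adjusted p under 0.05 together with a 1.5-fold change. Fold changes on this scale understate those of low genes. Each guide was compared with control within a sample type, sample types and interactions in a model of 18 libraries, and anti-PD1 with IgG on their own. An exact permutation test cannot give a 2-sided p below 0.333 with 2 against 2 libraries or below 0.1 with 2 against 3.

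The 8 genes, the 9 pathway lists and the marker lists were written with earlier results of these data known. Genes named from a list were those called in a comparison of sg495 or of control sample types, at most 4 per list and comparison. Results for 2 genes of the lists are not reported here, and the list counts leave them out. The procedure was checked on simulated libraries with known changes, placed in 100 genes for each size of change. These genes lay away from 0 TPM, so recovery of low genes was not assessed. At a log2 change of 1, the procedure recovered 67% of them for sg495 in bulk tumors (fit of 13639 genes). Recovery was 57% in sorted tumor cells (fit of 12899 genes) and 89% in cultured cells (fit of 12007 genes). Positions came from GENCODE M21, which holds 99.1% of the genes. Of the 8 genes, Casp8 shares 1.95% of its 75-base windows with another gene, and Casp8, Pycard and Mlkl overlap other annotated genes. Alternatives were another pseudocount, filter, scaling, normalization or variance model, a replicate block, other sets of libraries, no fold threshold, centering of chromosome 8 and each library left out in turn. Deviations of same-numbered libraries correlated with r between -0.13 and 0.05 within the 3 sample types and with r = 0.09 (13418 genes, 2 shared numbers) between IgG and anti-PD1. Plots and tables used Python 3.11.15, pandas 2.3.3 and matplotlib 3.10.9.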

Additional observations from a re-analysis of the deposited data

Results flagged for a closer look

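The pathway genes for which the effect of sg495 differed between sorted tumor cells and cultured cells in a test of the difference itself (limma, Benjamini-Hochberg) were those described in the report. The differences of the effects in log2(TPM + 1) were 4.05 ± 0.45 for Irf1, 3.96 ± 0.66 for Zbp1, 2.51 ± 0.45 for Il18bp, 2.46 ± 0.37 for Nod1, 1.75 ± 0.28 for Irf9, 1.25 ± 0.29 for Serpinb9, 1.06 ± 0.26 for Stat2 and 0.82 ± 0.18 for Casp6. The 8 cell death genes are left out of this list, because they were chosen with these values known, and their differences are given in the report as a description.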

How the results depend on the processing

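No called difference changed its direction under an alternative. The share of all genes called under each alternative is not given beside the counts below. With sg495 in sorted tumor cells, the count of the 8 genes called fell from 1 (Pycard) to 0 with a pseudocount of 0.1, without a filter on low values, with median-of-ratios scaling, quantile normalization, the replicate block, no variance trend, a fit of 2 groups only or chromosome 8 centered, and rose to 3 in a fit of all 18 libraries. The count of pathway genes, 4, became 2 with the pseudocount of 0.1, 0 without the filter, 1 without a trend, 8 in the fit of all 18 libraries and 2 in the fit of 2 groups. With each library left out, these counts were 0 to 0 for the 8 genes and 0 to 2 for pathway genes. In bulk tumors the fit of all 18 libraries called 2 of the 8 genes and 6 pathway genes for sg495, and leaving out 1 library gave 0 to 6 pathway genes for sg495 and 0 to 3 for sg492. In cultured cells, centering of chromosome 8 left 1 of the 8 genes called, no fold threshold gave 8 pathway genes in place of 2, leaving out 1 library gave 0 to 2, and 1 was called without the filter, with a filter of mean 5 TPM, median-of-ratios scaling, quantile normalization, the replicate block or a fit of 2 groups. Between sorted and cultured controls, 4 of the 8 genes were called with a pseudocount of 0.1 and 5 with no fold threshold, which gave 21 pathway genes. Between bulk and sorted controls, a filter of mean 5 TPM left 1 of the 8 genes and 10 pathway genes, no fold threshold gave 7 of the 8, and leaving out 1 library gave 11 to 22 pathway genes. The interaction of sorted with cultured cells gave 2 to 4 of the 8 genes under the alternatives, and its count of pathway genes, 8, became 5 without the filter and 5 to 9 with a library left out. That of bulk with sorted gave 3 pathway genes without the filter and 0 to 1 with a library left out. The cause of these changes was not tested. With the replicate block, 11 pathway genes were called between anti-PD1 and IgG in place of 0. Only anti-PD1 has a replicate 3, so the block fits that library with its own term and it no longer enters this difference. The block also ended the calls of Pycard (adjusted p = 0.08149) and Il18bp (0.06799) in sorted cells with sg495, of Il18 in culture (0.05276) and of Serpinb9 in the interaction of sorted with cultured cells (0.05234). Deviations of same-numbered libraries over all genes correlated with r of at most 0.05 within the 3 sample types and of 0.09 between IgG and anti-PD1, where Casp1, Ripk3, Mlkl and Ptprc were lower in replicate 1 than in replicate 2 of both groups. The labels give no pairing, so these libraries share only a number. TPM without read counts limit what can be said of genes near 0, such as Casp1, Ripk3 and Casp12 in cultured cells.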
